A study of Homo sapiens with 18 samples.

Results

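Transcripts of 9 genes that control the breakdown and shedding of proteins at the cell surface were followed in SK-N-MC cells exposed to rotenone. They were the matrix metalloproteinases MMP2, MMP9 and MMP14, the membrane proteases ADAM9 and ADAM17, the tissue inhibitors TIMP1, TIMP2 and TIMP3, and PLAT, the tissue-type plasminogen activator. The members were all probe sets that the annotation of the array assigns to one of these genes alone, which gave 17 of the 22283 probe sets on the array and 17 of the 19065 with a single gene. A probe set was tested where its signal reached 50 on at least 3 of the 18 arrays, a filter passed by 13705 probe sets of 9162 genes. It was passed by 16 of the 17 members, so that 9 of the 9 genes were tested. The remaining probe set, MMP14 217279_x_at, read between 2.81 and 34.4 and reached 50 on no array.

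SK-N-MC is an established human tumour line, called a neuroepithelioma in the labels, and rotenone is a pesticide that inhibits complex I of the mitochondrial respiratory chain. Cells were kept for 1 week with ethanol vehicle (1w0nM), 5 nM rotenone (1w5nM) or 50 nM rotenone (1w50nM), and for 4 weeks with the same additions (4w0nM, 4w5nM and 4w50nM), all in medium with glucose and serum and without added pyruvate. The labels describe 5 nM as non-lethal and 50 nM as killing some cells. Each of the 6 groups had 3 arrays, 1 per experiment by the design text, each of RNA from pooled dishes. Whether the replicate number names the experiment is not stated. The adjusted p-values given here rest on the spread of arrays within groups, pooled over all 6 groups. They do not measure the spread of the 3 arrays of a compared group alone. In RNA from whole dishes, fewer cells of a type and less RNA per cell cannot be told apart.

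Matrix metalloproteinases are zinc enzymes that cut collagens, other matrix proteins and growth factor reservoirs, and most are secreted as inactive proenzymes. MMP14 sits in the plasma membrane and activates pro-MMP2 there in a complex with TIMP2, while plasmin, the product of plasminogen cleavage by PLAT, can start the activation of several other proenzymes. ADAM9 and ADAM17 are membrane-anchored relatives that release the outer parts of membrane proteins such as growth factor precursors. TIMP1, TIMP2 and TIMP3 each block the active site of most matrix metalloproteinases, and TIMP3 also blocks that of ADAM17. In brain tissue and neural tumours the balance between enzymes and inhibitors is known for its part in matrix remodelling, cell migration and inflammation.

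RefSeq promoters (build GRCh38.p14) were matched for 4 of the 9 genes, MMP14, ADAM17, TIMP1 and TIMP3. The 250 bases before the transcription start are shown for TIMP1, TIMP3 and MMP14, which fell with 50 nM rotenone at 4 weeks in all or most of their tested probe sets, and capitals mark each GC box, the letters GGGCGG on either strand, the site known for SP1 binding. TIMP1 lies at chrX:47582186-47582435 (plus strand), TIMP3 at chr22:32801455-32801704 (plus strand) and MMP14 at chr14:22836335-22836584 (plus strand).
TIMP1: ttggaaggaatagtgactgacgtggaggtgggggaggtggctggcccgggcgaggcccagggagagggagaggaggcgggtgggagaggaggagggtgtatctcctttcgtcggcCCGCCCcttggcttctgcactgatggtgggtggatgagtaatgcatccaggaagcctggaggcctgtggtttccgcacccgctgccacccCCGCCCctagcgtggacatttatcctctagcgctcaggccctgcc
TIMP3: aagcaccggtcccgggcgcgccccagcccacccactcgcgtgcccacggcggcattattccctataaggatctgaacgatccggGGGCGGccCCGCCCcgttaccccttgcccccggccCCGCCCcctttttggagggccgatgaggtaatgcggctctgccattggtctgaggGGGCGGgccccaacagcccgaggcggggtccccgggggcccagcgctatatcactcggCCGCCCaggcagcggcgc
MMP14: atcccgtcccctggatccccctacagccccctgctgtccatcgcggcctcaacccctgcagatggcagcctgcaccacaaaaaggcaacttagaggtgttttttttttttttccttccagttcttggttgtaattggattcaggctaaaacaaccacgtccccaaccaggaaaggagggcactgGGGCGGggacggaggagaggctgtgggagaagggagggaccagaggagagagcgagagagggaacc
TIMP1 held 2 GC boxes, 135 and 45 bases before the start, TIMP3 held 5, the nearest 18 bases before it, and MMP14 held 1, 66 bases before it. The ADAM17 window, not shown, held 3. A GC box was present in 42.6% of 35116 promoters read over the same 250 bases. The AP-1 letters TGANTCA, present in 6.57% of promoters, and the ETS letters GGAAGT, in 19.5%, both searched on both strands, were found in none of the 4 windows. These are exact matches of letters in a window. Variants of the letters were not searched, so AP-1 or ETS sites with other letters may lie in the windows. The arrays did not measure the binding of any factor.

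Array medians lay between 87.0 and 102, a 1.17-fold range. The Ewing family markers that served as the identity check of SK-N-MC had signal for 7 of 7 measured genes. Of 7 measured sympathetic neuroblast markers 5 also passed the filter. MYCN and GATA3 reached 50 on 18 arrays and ISL1 on 17, while PHOX2A and TH did so on no array. Of 4 measured macrophage markers, CD14 and CSF1R reached 50 on no array, while PTPRC did so on 18 arrays (63.6 to 1567) and AIF1 on 16 (30.3 to 737). Their summed signal ranged over 823 to 1192 in 1w0nM, 508 to 579 in 1w5nM and 376 to 458 in 1w50nM, and over 457 to 551 in 4w0nM, 1407 to 1624 in 4w5nM and 575 to 865 in 4w50nM. At 4 weeks PTPRC was higher with 5 nM (log2 1.83, adjusted p = 0.0358) and AIF1 with 50 nM (log2 2.62, adjusted p = 0.000656). Within the 1w0nM group the lowest correlation between arrays was 0.908, against 0.965 to 0.988 in the other 5 groups, and replicate 3 of 1w0nM read low for several members, as given with their values. The 18 probe sets of hybridization controls, added to every sample alike, averaged 8.69 to 9.10 on the log2 scale on the 6 rotenone arrays of 4 weeks, against 9.69 to 10.1 on the other 12 arrays. Fibroblast-type markers moved with several members. Of the 9 of 10 that passed the filter, 5 were higher and 0 lower with 5 nM at 1 week, 5 and 0 with 50 nM at 1 week, 1 and 5 with 5 nM at 4 weeks, and 0 and 6 with 50 nM at 4 weeks. Their summed signal ranged over 3943 to 4400 in 1w0nM, 6383 to 6674 in 1w5nM and 6014 to 6556 in 1w50nM, and over 6281 to 6470 in 4w0nM, 4312 to 5067 in 4w5nM and 4254 to 4699 in 4w50nM. POSTN reached 50 on no array, while COL1A1, COL1A2 and DCN did so on all 18. The part of the macrophage and fibroblast marker lists and of the hybridization controls in the members' values was not tested.

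Against vehicle, most called members were higher at 1 week and lower at 4 weeks. With 5 nM for 1 week, 3 of the 16 probe sets were higher (limma, Benjamini-Hochberg adjusted p below 0.05, as in all calls here) and 0 were lower, and among all 13705 probe sets 4.79% were higher and 1.88% lower. With 50 nM for 1 week, 5 were higher and 1 was lower, and 8.23% of all were higher and 13.6% lower. With 5 nM for 4 weeks, 1 was higher and 4 were lower, and of all probe sets 18.3% were higher and 14.1% lower. With 50 nM for 4 weeks, 1 was higher and 11 were lower, among 22.9% higher and 18.1% lower of all. The 11 lower probe sets belonged to 7 genes. The share of members lower with 50 nM at 4 weeks was above that of the array as a whole, and for 5 nM at 4 weeks the 4 lower of 16 lay closer to the background. Members were chosen with earlier results of these data known, and several probe sets read the same gene. Nothing is therefore concluded from these shares. Without replicate 2 of 1w0nM the count for 5 nM at 1 week was 8, and without replicate 1 of 1w0nM or replicate 1 of 1w50nM that for 50 nM at 1 week was 3. The background moved too. Of all probe sets, 264 to 1604 were called for 5 nM at 1 week without 1 array, against 915 with all arrays, and replicate 3 of 1w0nM and each 1w5nM array moved the count by over 1.5 times. For 50 nM at 1 week 1607 to 4929 were called, against 2991, and replicate 3 of 1w0nM and replicates 1 and 2 of 1w50nM did so.

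**Figure D1:**
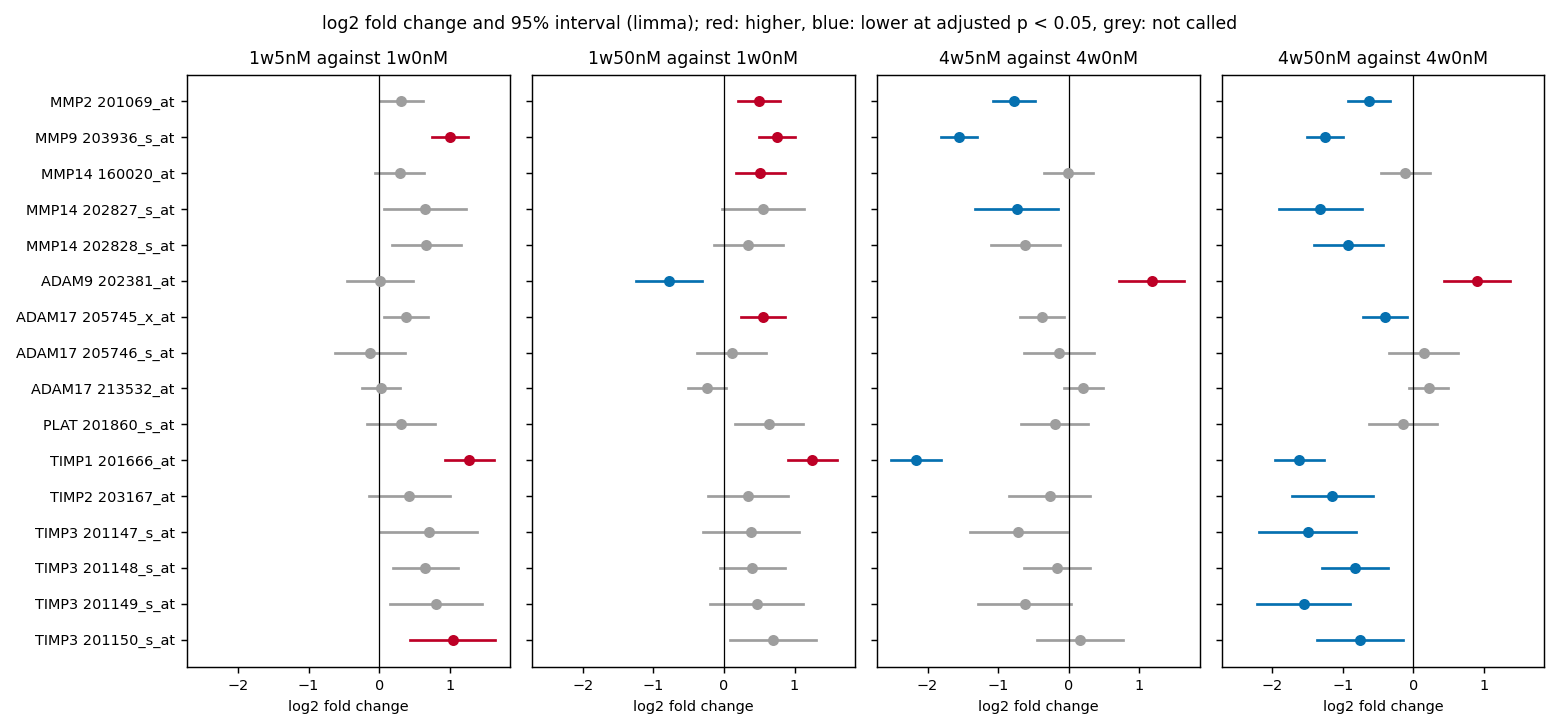
log2 fold change of the 16 tested probe sets (x axis, tested dose over the vehicle of the same week) with its 95% interval from the limma fit, 1 panel per comparison, with called probe sets in red (higher) or blue (lower) and the others in grey. TIMP1 and MMP9 lay right of 0 in both panels of 1 week and left of 0 in both of 4 weeks, and ADAM9 lay right of 0 in both of 4 weeks.

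MMP9, the gelatinase that cuts denatured collagen and type IV collagen, had the clearest turn among the proteases. Its signal on the single probe set 203936_s_at was 138, 124 and 132 in 1w0nM, 240.2, 279 and 272 in 1w5nM and 221, 219 and 223 in 1w50nM. At 4 weeks MMP9 read 263, 279.9 and 254 in 4w0nM, 90.3, 86.1 and 94.8 in 4w5nM and 98.7, 110.1 and 127 in 4w50nM. All 6 rotenone arrays of 1 week lay above the 3 vehicle arrays, and all 6 of 4 weeks lay below theirs. The log2 fold change was 1.00 ± 0.12 with 5 nM at 1 week (standard error, adjusted p = 7.76e-05, 2.01-fold) and 0.75 ± 0.12 with 50 nM (adjusted p = 4.95e-04). At 4 weeks MMP9 fell by 1.56 on the log2 scale with 5 nM, 2.94-fold (adjusted p = 2.47e-07), and fell by 1.25 with 50 nM, 2.38-fold (adjusted p = 2.86e-06). None of these 4 calls was lost when any 1 array was left out. Under the methods' t-test with a 2-fold limit the call of 50 nM at 1 week was lost, and after Benjamini-Hochberg adjustment of that test both calls of 1 week were. Both were also lost with the 4w0nM arrays as vehicle. The 2 doses did not differ past the threshold at either time (50 nM over 5 nM, log2 -0.25, 95% interval -0.50 to -0.00, at 1 week, and 0.30, interval 0.05 to 0.55, at 4 weeks).

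MMP2, the other gelatinase, is made by many mesenchymal cells and needs MMP14 and TIMP2 for its activation at the membrane. Its signal was 187, 176 and 247 in 1w0nM, 248, 267 and 235 in 1w5nM and 280.2, 269 and 301 in 1w50nM. At 4 weeks the arrays read 249, 248 and 292 in 4w0nM, 148, 145 and 169 in 4w5nM and 157, 194 and 158 in 4w50nM. The 1w5nM arrays overlapped the vehicle, where replicate 3 was high, the 1w50nM arrays lay above it, and both rotenone groups of 4 weeks lay below 4w0nM. MMP2 fell by 0.77 on the log2 scale with 5 nM at 4 weeks (1.71-fold, adjusted p = 6.30e-04) and fell by 0.63 with 50 nM (adjusted p = 0.00189), both under the 2-fold limit of the methods' t-test. At 1 week it rose by 0.49 ± 0.14 with 50 nM (adjusted p = 0.0198), a call that was lost without replicate 1 or 2 of 1w0nM or replicate 1 or 3 of 1w50nM, at adjusted p of up to 0.0876. With 5 nM the difference of 0.31 did not pass (adjusted p = 0.192).

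MMP14, the membrane-bound activator of pro-MMP2, was read by 3 tested probe sets, of which 160020_at did not follow the other two. Probe set 202827_s_at had 188, 263 and 89.8 in 1w0nM, 289, 248 and 240.1 in 1w5nM and 286, 231 and 212 in 1w50nM, with replicate 3 the lowest of its vehicle group. At 4 weeks it had 278, 357 and 319 in 4w0nM, 175, 183 and 212 in 4w5nM and 159, 95.1 and 135 in 4w50nM. The 3 groups of 4 weeks did not overlap one another. With 50 nM at 4 weeks 202827_s_at fell by 1.32 on the log2 scale (2.49-fold, adjusted p = 0.00117) and 202828_s_at fell by 0.93 (adjusted p = 0.00422). The log2 change of -0.74 with 5 nM in 202827_s_at (adjusted p = 0.0489) was lost whichever of the 6 arrays was left out, at adjusted p of up to 0.143.

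The third MMP14 probe set, 160020_at, stayed near one level at 4 weeks. It read 1413, 1145 and 1359 in 4w0nM, 1263, 1156 and 1478 in 4w5nM and 1246, 1109.5 and 1256 in 4w50nM, groups that overlapped. Its log2 differences from vehicle were -0.01 with 5 nM (95% interval -0.36 to 0.34) and -0.11 with 50 nM (interval -0.46 to 0.23), neither past the threshold. At 1 week its signals were 815, 976 and 1413 in 1w0nM, 1482, 1144 and 1217 in 1w5nM and 1516, 1348 and 1607 in 1w50nM, and it rose by 0.52 ± 0.17 with 50 nM (adjusted p = 0.0332), a call lost without replicate 1 or 2 of 1w0nM or replicate 1 or 3 of 1w50nM. Over the 18 arrays 202827_s_at and 202828_s_at had a Pearson correlation of 0.914 on the log2 scale, while 160020_at correlated with them at 0.110 and 0.0780. The 18 arrays share their 6 groups and their scaling, and which transcripts the probe sets take up was not tested. A fall of MMP14 with 50 nM at 4 weeks thus stood in 2 of its 3 tested probe sets.

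**Figure D2:**
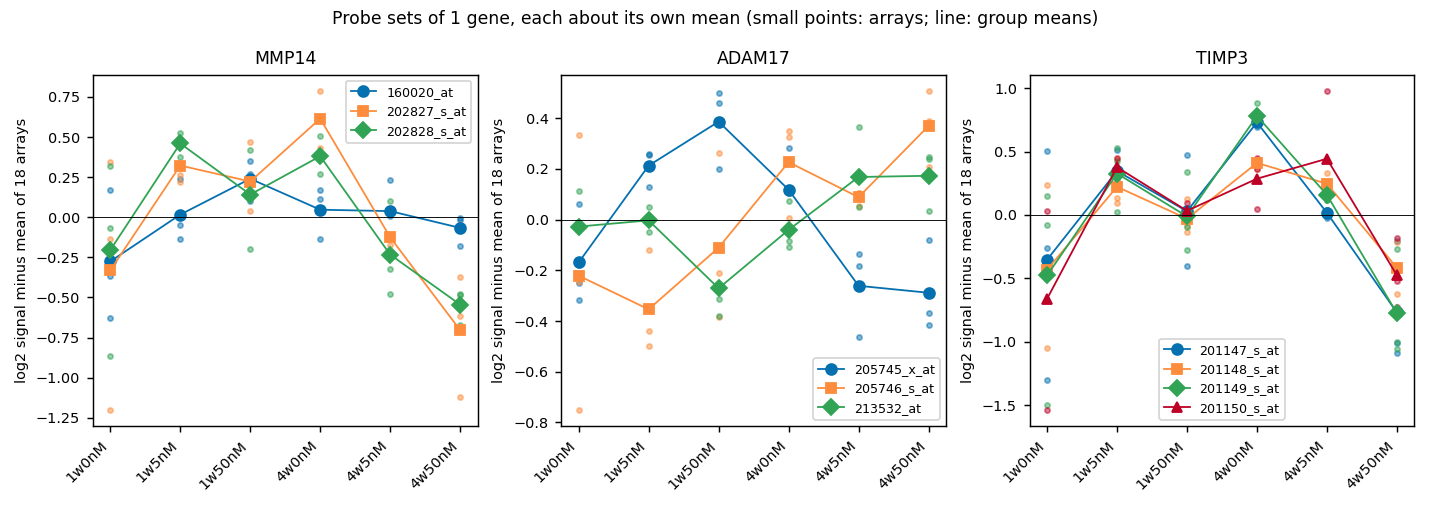
log2 signal of each tested probe set of MMP14, ADAM17 and TIMP3 minus its own mean over the 18 arrays (y axis), for the 6 groups (x axis), with arrays as small points and lines joining group means. The 4 TIMP3 probe sets ran together except for 201150_s_at in 4w5nM, each with its lowest group means in 4w50nM and 1w0nM, whereas 160020_at left the other MMP14 probe sets and 213532_at ran against 205745_x_at of ADAM17.

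ADAM9, a membrane protease that sheds growth factor precursors and cuts matrix proteins, was the single member called higher with rotenone at 4 weeks. Its signal was 317, 458 and 219 in 1w0nM, 272, 328 and 365 in 1w5nM and 148, 189 and 223 in 1w50nM. At 4 weeks it was 297, 285 and 266 in 4w0nM, 644, 584 and 687 in 4w5nM and 627, 557 and 422 in 4w50nM. Every rotenone array of 4 weeks was above every 4w0nM array, while at 1 week 2 of the 3 arrays of 50 nM lay below all vehicle arrays. ADAM9 rose by 1.17 ± 0.22 on the log2 scale with 5 nM at 4 weeks (2.26-fold, adjusted p = 7.36e-04) and by 0.90 ± 0.22 with 50 nM (1.87-fold, adjusted p = 0.0035). Both calls were kept when any 1 array was left out, and that of 50 nM did not reach the 2-fold limit of the methods' t-test. The log2 change of -0.78 with 50 nM at 1 week (adjusted p = 0.0174) was lost without replicate 2 of 1w0nM or replicate 1 of 1w50nM, at adjusted p of up to 0.101. With 5 nM at 1 week the difference was 0.01 (95% interval -0.45 to 0.48).

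ADAM17, the main sheddase of tumour necrosis factor and of several ligands of the epidermal growth factor receptor, had 3 probe sets with different behaviour. Probe set 205745_x_at read 137, 177 and 143 in 1w0nM, 203, 186 and 203 in 1w5nM and 195, 234 and 240.2 in 1w50nM. At 4 weeks it read 207, 183 and 166 in 4w0nM, 149, 123 and 155 in 4w5nM and 161, 127 and 132 in 4w50nM. Both rotenone groups lay above vehicle at 1 week and below it at 4 weeks, with log2 differences of 0.38 (adjusted p = 0.123), 0.56 (adjusted p = 0.0122), -0.38 (adjusted p = 0.0561) and -0.41 (adjusted p = 0.0342) for 5 nM and 50 nM at 1 week and then 5 nM and 50 nM at 4 weeks. The rise with 50 nM at 1 week was lost without replicate 1 of 1w0nM or replicate 2 of 1w50nM, and the fall with 50 nM at 4 weeks without replicate 1 or 2 of 4w0nM or replicate 2 or 3 of 4w50nM, at adjusted p of up to 0.138.

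The other ADAM17 probe sets did not pass the threshold against vehicle at any dose or time. Probe set 213532_at read 288, 321 and 283 in 4w0nM, 324, 316 and 393 in 4w5nM and 362, 359.8 and 312 in 4w50nM, overlapping groups with log2 differences of 0.21 and 0.21 above vehicle. Probe set 205746_s_at, at 28.9 to 69.3 over all arrays, lay about the filter of 50. Its correlation with 205745_x_at over the 18 arrays was -0.0804, and that of 213532_at with 205745_x_at was -0.522. No direction is given for ADAM17 as a gene, since its probe sets differed in sign at 4 weeks.

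PLAT, which turns plasminogen into plasmin and in brain also acts at synapses, did not pass the threshold in any of the 4 comparisons with vehicle. Its signal was 52.0, 51.2 and 72.1 in 1w0nM, 90.5, 49.0 and 81.5 in 1w5nM and 104, 68.8 and 101 in 1w50nM. At 4 weeks PLAT had 63.7, 78.0 and 71.8 in 4w0nM, 57.7, 53.9 and 75.5 in 4w5nM and 57.7, 70.9 and 64.3 in 4w50nM. The groups of either time overlapped, and several arrays were near the filter of 50. The nearest to a call was 50 nM at 1 week, with a log2 difference of 0.64 ± 0.23 (95% interval 0.16 to 1.12, adjusted p = 0.0529). At 4 weeks the intervals ran over -0.68 to 0.28 for 5 nM and -0.63 to 0.33 for 50 nM.

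TIMP1, a secreted inhibitor of most matrix metalloproteinases that also forms a complex with pro-MMP9, had the largest fold changes of the 16 probe sets in both comparisons of 1 week and in both of 4 weeks. Its signal was 1367, 1111 and 1308 in 1w0nM, 3059.9, 3008 and 3074 in 1w5nM and 2857, 2841 and 3304 in 1w50nM. At 4 weeks it was 3369, 3516 and 3493 in 4w0nM, 754, 696 and 877 in 4w5nM and 895, 961 and 1658 in 4w50nM. Rotenone arrays were all above vehicle at 1 week and all below it at 4 weeks, and replicate 3 of 4w50nM stood above the other 5 rotenone arrays of that time. TIMP1 rose by 1.28 ± 0.17 on the log2 scale with 5 nM at 1 week (2.42-fold, adjusted p = 1.96e-04) and by 1.25 ± 0.17 with 50 nM (adjusted p = 1.45e-04). At 4 weeks TIMP1 fell by 2.16 with 5 nM, 4.48-fold (adjusted p = 2.47e-07), and fell by 1.62 with 50 nM, 3.07-fold (adjusted p = 4.09e-06). No left-out array ended any of these 4 calls, but after Benjamini-Hochberg adjustment of the methods' t-test with its 2-fold limit only that of 5 nM at 4 weeks was kept. With the 4w0nM arrays as vehicle both calls of 1 week were lost.

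**Figure D3:**
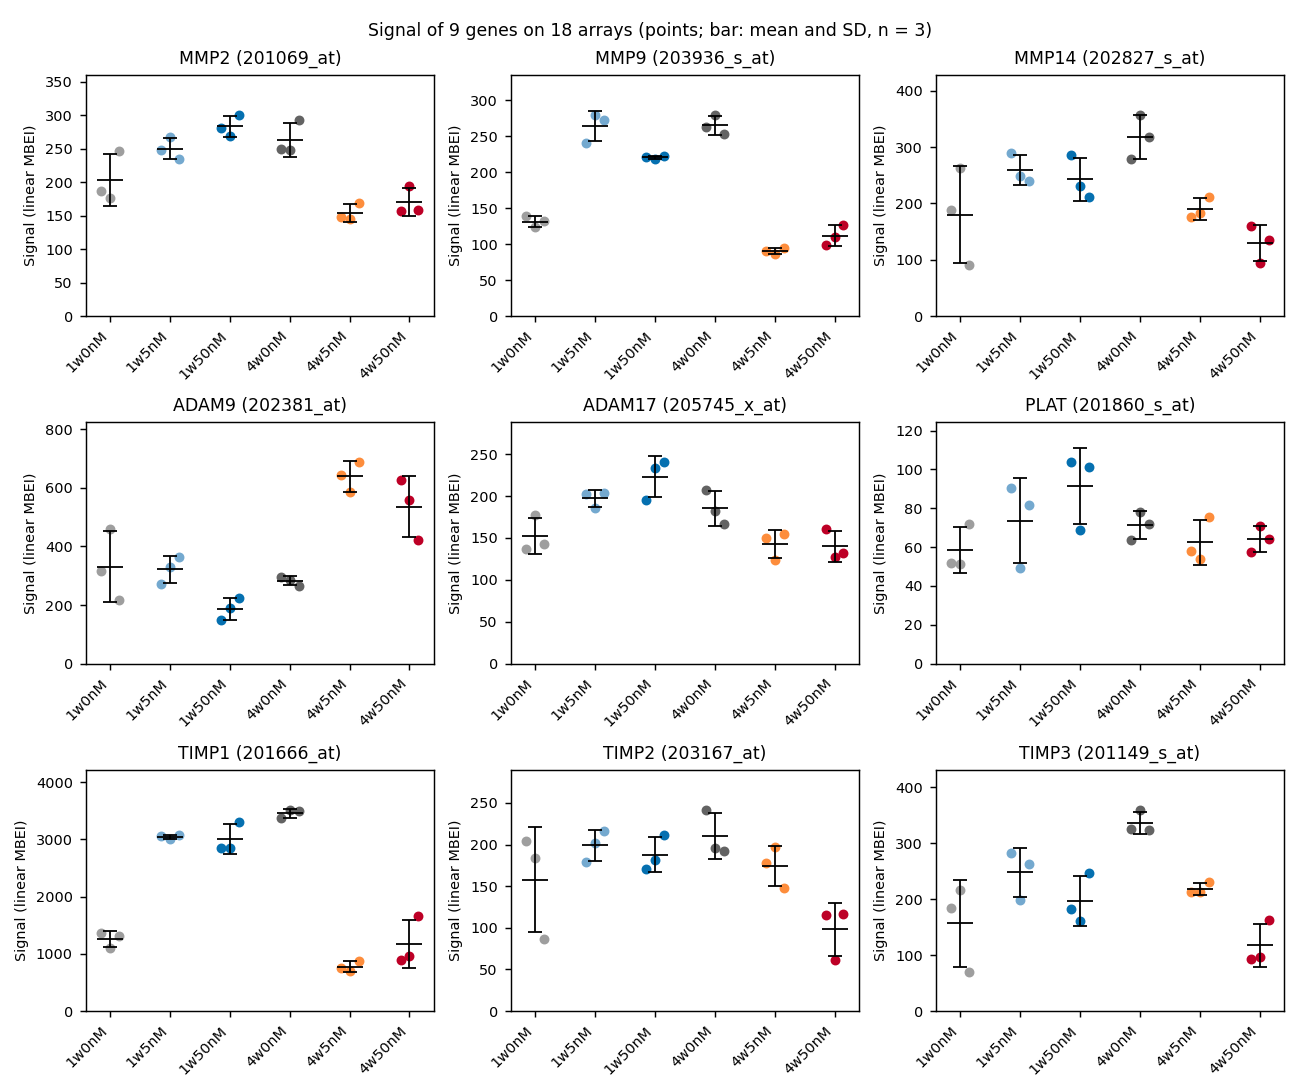
Signal of 1 probe set of each of the 9 genes (the one with the smallest adjusted p for 50 nM at 4 weeks; y axis, linear model-based expression index from 0) on the 18 arrays in the 6 groups (x axis), with points for arrays and a bar for mean and SD (n = 3). TIMP1 was at 3048 ± 34.7 in 1w5nM and 3001 ± 263 in 1w50nM against 1262 ± 134 in 1w0nM, and at 776 ± 92.4 in 4w5nM and 1171 ± 422 in 4w50nM against 3459 ± 78.7 in 4w0nM.

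TIMP2, which both inhibits metalloproteinases and couples pro-MMP2 to MMP14, was lower with the higher dose at 4 weeks. Its signal there was 242, 196 and 193 in 4w0nM, 178, 197 and 148 in 4w5nM and 116, 61.7 and 117 in 4w50nM. The 4w50nM arrays lay below all others of 4 weeks, and those of 4w5nM overlapped vehicle. TIMP2 fell by 1.15 on the log2 scale with 50 nM (2.22-fold, adjusted p = 0.00285), kept with any 1 array left out but not under the methods' t-test after Benjamini-Hochberg adjustment, whereas with 5 nM the difference of -0.27 did not pass (adjusted p = 0.473). At 1 week it read 205, 183 and 86.1 in 1w0nM, 179.5, 202 and 216 in 1w5nM and 171, 182 and 211 in 1w50nM. Replicate 3 of the vehicle was the lowest of these 9, and no difference of 1 week passed.

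TIMP3, the inhibitor that binds to the matrix and also blocks ADAM17, was read by 4 probe sets, and with 50 nM at 4 weeks it fell in all 4. Probe set 201149_s_at had 325, 359.6 and 323 in 4w0nM, 212, 212 and 231 in 4w5nM and 93.9, 97.4 and 162 in 4w50nM. Probe set 201147_s_at had 242, 252 and 250.3 in 4w0nM, 154, 153 and 147 in 4w5nM and 70.2, 74.1 and 129.7 in 4w50nM. In both, all 4w50nM arrays lay below all 4w5nM arrays, and these below all 4w0nM arrays. The log2 fold changes with 50 nM were -1.50 ± 0.33 for 201147_s_at (adjusted p = 0.00151), -0.83 ± 0.22 for 201148_s_at (adjusted p = 0.00633), -1.56 ± 0.31 for 201149_s_at (adjusted p = 8.04e-04) and -0.76 ± 0.29 for 201150_s_at (adjusted p = 0.0431). The call of 201150_s_at was lost without replicate 1 or 2 of 4w0nM or replicate 1 or 2 of 4w50nM. With 5 nM at 4 weeks none of the 4 passed in the fit, and their log2 differences ran over -0.71 to 0.16. The spread in that fit is pooled over all groups. The signal of 201147_s_at had an SD of 76.3 in 1w0nM, against 5.19 in 4w0nM and 4.05 in 4w5nM. That of 201149_s_at had 77.5, 20.4 and 10.7 in these groups.

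At 1 week the TIMP3 vehicle arrays were spread widely. Probe set 201150_s_at read 171, 243 and 81.8 in 1w0nM, 324, 302 and 300.5 in 1w5nM and 254, 245 and 232 in 1w50nM, and 201147_s_at read 125, 212 and 60.5, with replicate 3 again low, in 1w0nM. The rise of 201150_s_at by 1.04 ± 0.29 with 5 nM (adjusted p = 0.0396) was kept only without replicate 2 of 1w0nM and lost without any of the other 5 arrays, at adjusted p of up to 0.12. The other TIMP3 probe sets were higher by 0.65 to 0.80 with 5 nM and did not pass. Correlations between the 4 probe sets over the 18 arrays lay between 0.751 and 0.964.

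A question of the design is whether 50 nM acted apart from 5 nM. At 4 weeks 1 of the 16 probe sets was higher and 4 were lower in 4w50nM than in 4w5nM, and among all probe sets 9.53% were higher and 7.07% lower. TIMP1 was higher by 0.54 ± 0.17 on the log2 scale (adjusted p = 0.032), a call lost without replicate 3 of 4w50nM or replicate 1 or 2 of 4w5nM, at a log2 difference as small as 0.26. TIMP2 was lower by 0.88 (adjusted p = 0.0348), lost without replicate 1 or 2 of 4w5nM or replicate 2 of 4w50nM. TIMP3 was lower in 3 of its probe sets, with log2 differences of -0.92 for 201150_s_at (adjusted p = 0.037), -0.94 for 201149_s_at (adjusted p = 0.0486) and -0.66 for 201148_s_at (adjusted p = 0.0482). The calls of 201148_s_at and 201149_s_at were kept only without replicate 3 of 4w50nM, and that of 201150_s_at was lost without replicate 3 of 4w5nM or replicate 1 or 2 of 4w50nM. The count of calls came to 1 without replicate 1 or 2 of 4w5nM or replicate 2 of 4w50nM, and to 2 without replicate 3 of 4w5nM or replicate 1 of 4w50nM. Of all probe sets, 1092 to 2487 were called without 1 array, against 2275 with all arrays, and replicate 2 of 4w5nM and replicates 1 and 2 of 4w50nM moved the count by over 1.5 times. At 1 week limma called 0 of the 16 members between 50 and 5 nM, with 2 at an unadjusted p below 0.05 and likewise 2 by the methods' t-test at that level, and 0.0073% of all probe sets, a single one, were called. ADAM9 was the lowest of these in log2 difference, at -0.79 (95% interval -1.26 to -0.33, adjusted p = 0.144), with all 1w50nM arrays below all 1w5nM arrays.

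Whether a dose acted differently at the 2 times was tested as its effect at 4 weeks minus its effect at 1 week. For 5 nM, 9 of the 16 probe sets differed, 1 of them upward and 8 downward, among 15.4% upward and 16.8% downward of all. For 50 nM, 14 differed, 2 upward and 12 downward, among 25.6% upward and 19.7% downward of all. For TIMP1 the log2 effect at 4 weeks minus that at 1 week was -3.44 with 5 nM (adjusted p = 2.29e-08) and -2.87 with 50 nM (adjusted p = 2.86e-07). For MMP9 it was -2.56 (adjusted p = 1.56e-08) and -2.00 (adjusted p = 3.57e-07), and for MMP2 it was -1.09 and -1.13. The effect on ADAM9 was higher at 4 weeks by 1.16 ± 0.31 for 5 nM (adjusted p = 0.00917) and by 1.69 ± 0.31 for 50 nM (adjusted p = 3.22e-04). PLAT and ADAM17 205746_s_at were called for neither dose.

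These differences rest on both vehicle groups, which themselves differed. In 4w0nM 4 members were higher than in 1w0nM and 0 lower, among 2.66% higher and 0.606% lower of all probe sets. TIMP1 was 2.75-fold higher (log2 1.46 ± 0.17, adjusted p = 5.69e-05) and MMP9 2.02-fold higher (log2 1.01 ± 0.12, adjusted p = 6.79e-05), and both calls were kept with any 1 array left out, though not under the methods' t-test after Benjamini-Hochberg adjustment. The others were TIMP3 201149_s_at at 1.26 (adjusted p = 0.0327) and 201148_s_at at 0.84 (adjusted p = 0.0436), both lost without any 1 of the 4w0nM arrays. The count was 8 without replicate 2 of 1w0nM and 2 without any 1 of the 4w0nM arrays, while of all probe sets 176 to 929 were called without 1 array, against 447 with all arrays, and replicate 3 of 1w0nM and each 4w0nM array moved that count by over 1.5 times. Set against the rotenone groups of 1 week, 4w0nM showed 0 called members by limma over 1w5nM (1 at an unadjusted p below 0.05, and 0.0% of all probe sets called) and 0 over 1w50nM (4 at an unadjusted p below 0.05, with 5.44% of all higher and 0.197% lower). For TIMP1 the log2 difference of 4w0nM over 1w5nM was 0.18 (95% interval -0.17 to 0.53), and for MMP9 it was 0.01 (interval -0.24 to 0.26). The rise of both genes with rotenone at 1 week was therefore measured against a vehicle group that was lower than the vehicle of 4 weeks, and why the vehicles differed cannot be told from these arrays.

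Ordered by mean log2 signal of the groups, MMP9 stood highest in 4w0nM, then 1w5nM, 1w50nM, 1w0nM, 4w50nM and 4w5nM, and of these neighbours only 1w50nM over 1w0nM differed past the threshold. TIMP1 had the same order, with calls between 1w50nM and 1w0nM and between 4w50nM and 4w5nM. ADAM9 stood highest in 4w5nM, then 4w50nM, 1w5nM, 1w0nM, 4w0nM and 1w50nM, with a single call between neighbours, 4w50nM over 1w5nM, at a log2 difference of 0.73 (adjusted p = 0.0129). No neighbours in the order of MMP2, TIMP2 or PLAT differed past the threshold.

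Likeness was read for the 7 genes whose probe set with the highest mean was called, which leaves out ADAM17 and reads MMP14 by 160020_at, called only for 50 nM at 1 week, and TIMP3 by 201150_s_at alone. TIMP1 and MMP9 followed each other on the arrays, with a Pearson correlation of 0.983 over the 18 arrays on the log2 scale. Of all genes tested, TIMP1 was the most like MMP9 and MMP9 the most like TIMP1, and KRT8, a keratin, came next for both, at 0.972 with MMP9 and 0.977 with TIMP1, ahead of TGFBI, a matrix protein induced by TGF-beta, at 0.969 and 0.971. ADAM9 was most like TXNDC15, at 0.977, PRRG1, at 0.976, and IMPA1, at 0.972. TIMP2 was most like FGFR1, a fibroblast growth factor receptor, at 0.953, VCP at 0.939 and TEX261 at 0.938. TIMP3, by 201150_s_at, was most like PRKCA, a protein kinase C, at 0.957, OLFM1 at 0.940 and CNP at 0.939. MMP2 was most like EGR4 at 0.965, ARPC1B at 0.961 and IL2RG at 0.960, and MMP14, by 160020_at, was most like GP2 at 0.902, KRT36 at 0.889 and NODAL at 0.884. These correlations are descriptions over arrays that share 6 groups and a scaling, so any genes that differ between the same groups correlate.

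**Figure D4:**
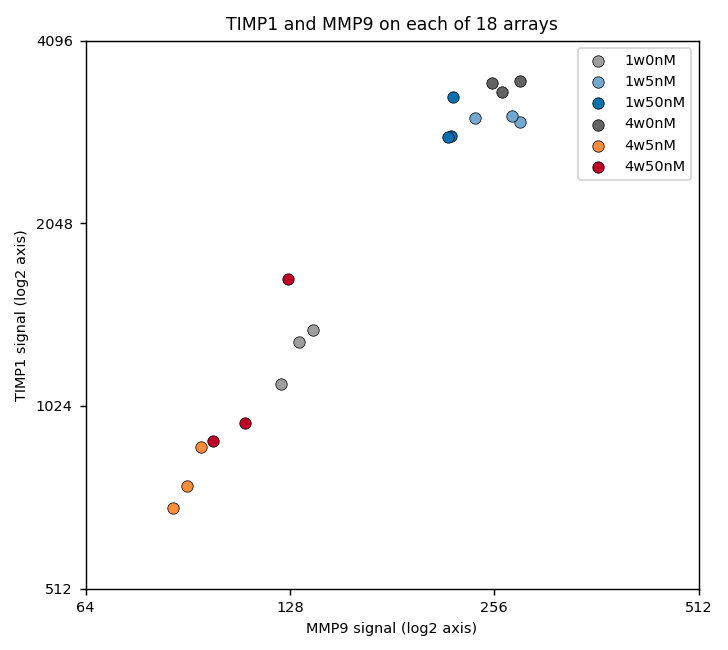
TIMP1 signal (y axis) against MMP9 signal (x axis), both on log2 axes, for each of the 18 arrays, coloured by group. The 1w5nM, 1w50nM and 4w0nM arrays lay at the upper right, the 1w0nM, 4w5nM and 4w50nM arrays at the lower left, and the correlation was 0.983.

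Each gene outside the members was read by its probe set with the highest mean, and of all 9162 genes 4.89% were higher and 1.59% lower with 5 nM at 1 week, 8.97% and 11.4% with 50 nM at 1 week, 18.5% and 14.1% with 5 nM at 4 weeks, and 23.3% and 17.6% with 50 nM at 4 weeks. Of 9 other matrix metalloproteinases tested, 0 passed at 1 week by limma, with 0 for 5 nM and 1 for 50 nM at an unadjusted p below 0.05 and the same counts by the methods' t-test, and 3 passed with 5 nM and 2 with 50 nM at 4 weeks. MMP11, a stromelysin-like enzyme activated inside the cell by furin, rose by 0.75 on the log2 scale with 5 nM (adjusted p = 0.0257) and by 0.71 with 50 nM (adjusted p = 0.0269), while MMP19 fell by 0.48 and MMP25 fell by 0.39 with 5 nM and MMP8 fell by 0.60 with 50 nM. These 4-week counts changed when 1 array was left out. For 5 nM 0 to 1 were then higher and 0 to 1 lower, and for 50 nM 0 to 1 were higher and 0 to 2 lower. All 3 calls of 5 nM were lost without replicate 3 or 2 of 4w0nM. The medians of this list were -0.20 and -0.21 at 4 weeks, against 0.03 and 0.02 over all genes.

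Of 9 other ADAMs tested, 0 were higher and 1 lower with 5 nM at 1 week, 0 and 1 with 50 nM at 1 week, 1 and 1 with 5 nM at 4 weeks and 2 and 1 with 50 nM at 4 weeks. Leaving out 1 array put the lower count at 0 to 1 for 5 nM and at 1 to 2 for 50 nM at 1 week, and the higher count with 50 nM at 4 weeks was 1 to 2. ADAM10, the constitutive sheddase of amyloid precursor protein and Notch, averaged 403 ± 34.8 in 4w0nM, 695 ± 46.5 in 4w5nM and 760.3 ± 107 in 4w50nM (SD, n = 3 each). It rose by 0.79 with 5 nM (adjusted p = 0.000274) and by 0.91 with 50 nM (adjusted p = 4.88e-05) at 4 weeks and fell by 0.58 with 50 nM at 1 week (adjusted p = 0.00496). ADAM15 fell at 4 weeks, with log2 changes of -0.76 and -0.49. ADAM22, which lacks protease activity, fell by 0.53 with 5 nM at 1 week and rose by 0.44 with 50 nM at 4 weeks. Of 8 ADAMTS proteases, 0 passed at 1 week by limma (0 for 5 nM and 1 for 50 nM at an unadjusted p below 0.05, and 0 for each by the methods' t-test). ADAMTS3 rose by 1.53 with 5 nM at 4 weeks. ADAMTS13 fell with both doses there (adjusted p = 0.0342 and 0.0279), with mean signals of 12.9 ± 0.9 in 4w5nM and 12.1 ± 1.1 in 4w50nM, under the floor of 16 set before the log2 scale, against 99.7 ± 69.7 in 4w0nM (SD, n = 3 each), so no fold is given. The counts of this list ran over 0 to 2 with 50 nM at 1 week in either direction without 1 array, and the calls of ADAMTS proteases lower at 4 weeks over 0 to 1.

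Of 12 other inhibitors and activators of metalloproteinases tested, 1 was higher and 0 lower with 5 nM at 1 week, 4 and 0 with 50 nM at 1 week, 0 and 4 with 5 nM at 4 weeks and 0 and 5 with 50 nM at 4 weeks. Without 1 array the higher counts of 1 week ran over 1 to 2 for 5 nM and over 2 to 5 for 50 nM, and with 50 nM at 4 weeks 0 to 1 were higher and 3 to 5 lower. PCOLCE, the enhancer of procollagen processing, rose at 1 week and fell at 4 weeks, with log2 changes of 1.48 and 1.34 for 5 and 50 nM at 1 week and -0.75 and -1.50 at 4 weeks. At 4 weeks BSG, known as an inducer of matrix metalloproteinases, fell (-1.11 and -0.97), and so did FURIN, a convertase that activates MMP14 and the ADAMs (-0.45 and -0.62). Within the plasminogen system, of 10 genes tested, 1 was higher and 1 lower with 5 nM at 1 week, 2 and 1 with 50 nM at 1 week, 2 and 2 with 5 nM and 1 and 3 with 50 nM at 4 weeks. Without 1 array the counts with 5 nM at 1 week were 0 to 1 in either direction, and the higher counts with 50 nM were 1 to 4 at 1 week and 1 to 2 at 4 weeks. SERPINI1, neuroserpin, the neural inhibitor of PLAT, fell at 1 week (-1.27 and -1.85) and rose by 2.27 and 2.26 at 4 weeks (adjusted p = 4.32e-05 and 2.56e-05), whereas PLAT itself did not pass. S100A10, a plasminogen receptor subunit, rose by 0.75 with 50 nM at 1 week and fell at 4 weeks (-0.86 and -0.91).

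Substrates were read from a pair of lists. Of 16 matrix substrates tested, 5 were higher and 0 lower with 5 nM at 1 week, 6 and 0 with 50 nM, 2 and 4 with 5 nM at 4 weeks and 2 and 5 with 50 nM. Without 1 array 3 to 6 were higher with 5 nM at 1 week, 1 to 2 were higher and 4 to 7 lower with 5 nM at 4 weeks, and 0 to 3 were higher with 50 nM there. TNC, tenascin C, rose by 2.87 and 2.38 at 1 week and fell at 4 weeks (-1.79 and -1.75). VCAN, versican, rose by 1.32 and 1.21 at 1 week and fell at 4 weeks (-1.22 and -0.96). COL1A2 fell by 1.54 with 5 nM at 4 weeks and differed by -0.29 with 50 nM, which did not pass. COL1A1 and COL1A2 are also in the fibroblast list. Of 23 substrates and partners of ADAMs, 2 were higher and 0 lower with 5 nM at 1 week, 5 and 1 with 50 nM, 4 and 4 with 5 nM at 4 weeks and 3 and 5 with 50 nM. Without 1 array the higher counts ran over 1 to 3, 2 to 7, 1 to 3 and 1 to 3 in these comparisons, and the lower counts of 1 week over 0 to 1 and 0 to 2. TNF, the substrate that gave ADAM17 its name of converting enzyme, fell at 4 weeks with both doses (adjusted p = 0.000268 and 2.94e-06). Its signal was 29.2 ± 2.4 in 4w5nM (log2 change -1.20) and 12.4 ± 2.5 in 4w50nM, under the floor of 16, against 67.0 ± 3.6 in 4w0nM. ERBB4, a receptor cut by ADAM17, fell by 0.56 with 50 nM at 1 week (adjusted p = 0.0124) and rose by 1.14 with 50 nM at 4 weeks.

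A list of AP-1, ETS and NF-kappa-B factors also held STAT3 and SP1, which are of other families and are in its counts. Of its 16 tested transcription factors, 2 were higher and 0 lower with 5 nM at 1 week and 4 and 1 with 50 nM. At 4 weeks 0 were higher and 4 lower with 5 nM, and 0 and 3 with 50 nM. Without 1 array the higher counts of 1 week ran over 1 to 3 and 2 to 7, 0 to 1 were lower with 5 nM at 1 week, and 2 to 4 were lower with 5 nM at 4 weeks. JUNB rose by 1.22 and 1.15 at 1 week and fell by 0.93 with 5 nM at 4 weeks, with a difference of -0.03 for 50 nM. STAT3 was lower at 4 weeks with 5 nM (log2 -0.59, adjusted p = 0.00152) and with 50 nM (-0.40, adjusted p = 0.0142). ETV5 was lower with 50 nM at 4 weeks (adjusted p = 0.00226). SP1, known to bind GC boxes, fell by 1.22 with 50 nM at 1 week (adjusted p = 0.00264) and did not pass in the other 3 comparisons. The part of these factors in the members' values was not tested.

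ADAM9 and PLAT lie near each other on chromosome 8, with 11 measured genes between them. Among the 40 measured neighbours of ADAM9, 20 on each side, 12 were higher and 2 lower with 5 nM at 4 weeks. Of all genes 18.5% were higher and 14.1% lower. The median log2 difference of the neighbours was 0.40, against 0.03 over all genes and 1.17 for ADAM9. With 50 nM at 4 weeks 2 neighbours were higher and 13 lower, among 23.3% higher and 17.6% lower of all genes. The median of the neighbours was -0.26, against 0.02 over all genes and 0.90 for ADAM9. The number of neighbours above ADAM9 was 3 of 40 with 5 nM and 0 of 40 with 50 nM. Between the doses at 4 weeks, 0 of the 40 were higher and 17 lower in 4w50nM than in 4w5nM, by limma (0 higher also at an unadjusted p below 0.05 and by the methods' t-test), among 9.92% higher and 7.07% lower of all genes. Their median was -0.55, and ADAM9 itself differed by -0.27 without passing. PLAT, among neighbours of which 13 were higher and 2 lower with 5 nM at 4 weeks, had -0.20, and 33 of its 40 neighbours lay above it. With 50 nM at 4 weeks 3 of its neighbours were higher and 14 lower, PLAT had -0.15, and 20 of the 40 lay above it. Around the members on other chromosomes the neighbours, higher then lower, were counted in the same way with 50 nM at 4 weeks. They were 2 and 14 for TIMP2, 1 and 12 for TIMP3, 13 and 2 for MMP2 and 10 and 11 for TIMP1. They were 7 and 6 for MMP9, 10 and 5 for MMP14 and, of 36 neighbours, 7 and 3 for ADAM17. Neighbouring genes are not independent of one another, and whether copy number of the chromosome 8 region differed between the cultures was not measured.

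**Figure D5:**
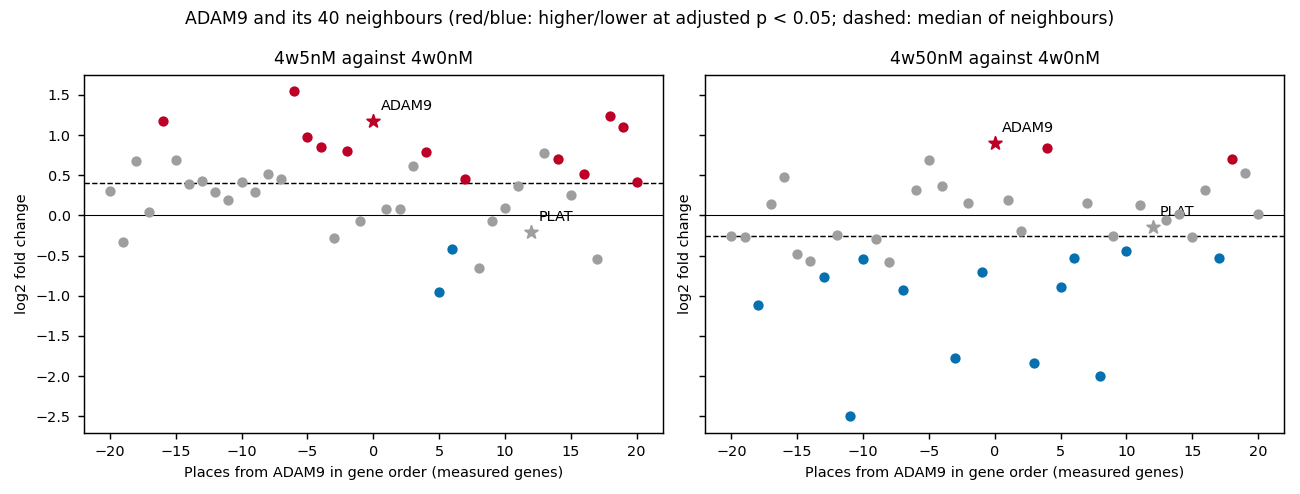
log2 fold change (y axis) of ADAM9, PLAT and the other measured neighbours of ADAM9 by their place in gene order (x axis), with 5 nM (left) and 50 nM (right) against vehicle at 4 weeks, called genes in red or blue and the median of the 40 neighbours dashed. ADAM9 lay near the top of the left panel and at the top of the right one, where the median of its neighbours was -0.26.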

How the data were processed

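The authors deposited linear intensity values (dChip model-based expression indexes) of 18 single-colour Affymetrix human genome arrays, already scaled between arrays. The scaling method and the genome build are not given in the sources used here. Intensities were set to a floor of 16 and taken to log2. Probe sets of a single gene that reached 50 on 3 or more arrays were fitted with limma 3.58.1 in R 4.3.3 (6 group means, intensity trend, 12 residual degrees of freedom and 5.68 prior ones), with Benjamini-Hochberg adjustment over 13705 probe sets in each comparison and calls at 0.05. Gene order and promoters came from RefSeq (GRCh38.p14). The fit was tested on simulated data.

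All 9 members were named with all their probe sets. The 3 most alike genes were named for each member whose probe set with the highest mean was called. Genes of a list were taken from the 4 with the smallest adjusted p among those called against vehicle. Not all of these 4 are given for each list. Members and lists were chosen with earlier results of these data known. Alternatives were other floors (8 and 32), a started log, filters (none and 100), quantile and median scaling, 1 probe set per gene, array weights, a replicate block, no intensity trend, fits of the compared groups alone, the methods' t-test with a 2-fold limit, and each array left out. A further one, 4w0nM as the vehicle of 1 week, was chosen after seeing the data. The number of arrays limits the precision.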

Additional observations from a re-analysis of the deposited data

Results flagged for a closer look

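Where the effect of a dose at 4 weeks differed from its effect at 1 week (limma contrast of the 2 effects, adjusted p below 0.05), the log2 difference, 4 weeks minus 1 week, is given here. For 5 nM it was -3.44 for TIMP1, -2.56 for MMP9, -1.09 for MMP2, -1.39 and -1.28 for MMP14 202827_s_at and 202828_s_at, -1.41 and -1.43 for TIMP3 201147_s_at and 201149_s_at, -0.76 for ADAM17 205745_x_at and 1.16 for ADAM9. For 50 nM it was -2.87 for TIMP1, -2.00 for MMP9, -1.13 for MMP2 and -1.49 for TIMP2. MMP14 had -0.63, -1.87 and -1.27 on 160020_at, 202827_s_at and 202828_s_at. TIMP3 had -1.88, -1.23, -2.02 and -1.46 on 201147_s_at, 201148_s_at, 201149_s_at and 201150_s_at. ADAM17 had -0.96 on 205745_x_at and 0.46 on 213532_at, and ADAM9 had 1.69.

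Without replicate 3 of 1w5nM the call of TIMP3 201147_s_at for 5 nM was lost, at an adjusted p of 0.0577. Those of MMP14 160020_at and ADAM17 213532_at for 50 nM were lost in 8 of the 12 cases with 1 array left out, namely without replicate 1 or 2 of 1w0nM, 1 or 3 of 1w50nM, 1 or 3 of 4w0nM, or 1 or 2 of 4w50nM. All these differences rest on both vehicle groups. Each is the change from 1 to 4 weeks with the dose minus that in vehicle. For 5 nM, TIMP3 201149_s_at changed by -0.17 in 4w5nM over 1w5nM (adjusted p = 0.702) and by 1.26 in 4w0nM over 1w0nM. For TIMP3 201147_s_at these were -0.33 (adjusted p = 0.451) and 1.08, and for MMP14 202827_s_at -0.45 (adjusted p = 0.217) and 0.95. For TIMP1 they were -1.98 (adjusted p = 5.51e-07) and 1.46, and for MMP9 -1.54 (adjusted p = 2.91e-07) and 1.015.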

How the results depend on the processing

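Counts are of the 16 member probe sets called. With the 4w0nM arrays as the vehicle of 1 week, 0 were called for 5 nM and 0 for 50 nM, and TIMP1 and MMP9 turned sign, at log2 -0.18 and -0.01 for 5 nM and -0.21 and -0.27 for 50 nM, none of them called. With single arrays left out the counts ran over 2 to 8 (5 nM) and 3 to 7 (50 nM) at 1 week, 4 to 6 and 10 to 12 at 4 weeks, 1 to 5 for 50 over 5 nM at 4 weeks, 2 to 8 for 4w0nM over 1w0nM, 8 to 11 and 12 to 15 for the differences between times, and 0 for 50 over 5 nM at 1 week.

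Fitting the compared groups alone gave 2 for 50 nM at 1 week, 8 for 5 nM at 4 weeks, 1 for 50 over 5 nM at 1 week and 2 for 4w0nM over 1w0nM. Array weights gave 10 for 5 nM at 4 weeks, 5 and 8 for 50 over 5 nM at 1 and 4 weeks, and 2 between vehicles. The methods' t-test at 2-fold gave 1 for 50 nM at 1 week, 3 and 6 at 4 weeks and 0 for 50 over 5 nM there. The calls of 4 weeks that it ended were MMP2 and MMP14 202827_s_at for 5 nM, and MMP2, ADAM9, MMP14 202828_s_at, ADAM17 205745_x_at, and TIMP3 201148_s_at and 201150_s_at for 50 nM, and at 1 week TIMP3 201150_s_at for 5 nM and all of 50 nM but TIMP1, and between vehicles TIMP3 201148_s_at. After Benjamini-Hochberg adjustment it gave 0 and 0 at 1 week, 3 and 3 at 4 weeks (for 50 nM TIMP1, TIMP2 and TIMP3 201147_s_at were lost as well), 0 for 50 over 5 nM at 4 weeks and 0 between vehicles, and it was not run for the differences between times. With 1 probe set per gene the counts were 6 of 9 genes for 50 nM at 4 weeks, 3 for 50 over 5 nM there, 2 between vehicles, and 4 and 8 for the differences between times. Without the filter they were 1 for 50 over 5 nM at 4 weeks and 2 between vehicles, and without the trend 2 for 50 over 5 nM.

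Over the 7 comparisons of groups that share a time, or are both vehicle, same-numbered arrays had correlations of -0.26 to 0.36 of their deviations, with no comparison above 0.1 in every pair, and the numbers were not taken as pairs. The replicate block gave 2 for 50 over 5 nM at 4 weeks and 2 between vehicles, and the other counts stayed within 1.5 times. Of 64 list counts, 34 moved by over 1.5 times without some 1 array. The percentages of all probe sets that stand beside the counts move with the calls given next.

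Of 1721 member values not called in the fit above that were recomputed, 82 had the other sign under an alternative and 0 of them were called. Over all probe sets, leaving out 1 array gave 264 to 1604 calls for 5 nM at 1 week (915 with all arrays), 1607 to 4929 for 50 nM at 1 week (2991), 1092 to 2487 for 50 over 5 nM at 4 weeks (2275), 0 to 44 at 1 week (1) and 176 to 929 between vehicles (447).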
